A study of Mus musculus with 53 samples.

Results

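Measurements of 9 genes are given here for the dystrophin-associated complex and 2 partner genes of the muscle membrane and cytoskeleton, in the cerebellum of mice in which Insm1, or Tead1 and Tead2, had been deleted. The genes were chosen by symbol, not by a measured value, but with earlier results of these data known. They are Dmd, Utrn, Dag1, Sgca, Sgcb, Sgcd, Dtna, Des and Cav3. These are 9 of the 55573 genes of the P2 (postnatal day 2) tables and 9 of the 57010 genes of the P7 (postnatal day 7) matrices. All 9 were present in both. Insm1 mutants carried Atoh1Cre and homozygous floxed Insm1, and their controls were Insm1 fl/fl without Cre. Tead1/2 mutants carried Atoh1Cre with homozygous floxed Tead1 and Tead2, and their controls carried the same floxed alleles without Cre. Atoh1Cre is active in the Atoh1 lineage of the rhombic lip, which gives rise to granule cells, so the glia, vessels and meninges of the mutants were not the targeted cells. No control carried Cre alone. Bulk RNA-seq at P2 used cerebella of individual pups, with 4 libraries per group except for 3 in the Tead1/2 control group. Single-cell RNA-seq at P7 used 1 cerebellum per library, with 2 controls and 3 mutants per allele. In each P7 group, library 1 held all lobules and the others were dissected without lobules IX and X. The ATAC-seq and CUT&RUN samples of the series were not analysed here.

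Dystrophin, the product of Dmd, ties the actin cytoskeleton to the membrane protein dystroglycan, whose outer part binds laminins of the basement membrane. Sarcoglycans stabilise this link in muscle, and dystrobrevins and syntrophins bind it from inside the cell. In brain, Dmd and Dag1 also have products in astroglia and at inhibitory synapses, Utrn (utrophin, the autosomal relative of dystrophin) is prominent in vessels, and Dtna (alpha-dystrobrevin) is prominent in astroglial endfeet. By contrast Sgca (alpha-sarcoglycan), Des (desmin, the intermediate filament of muscle) and Cav3 (caveolin-3, the muscle caveolin) are known as genes of striated muscle, and Des also of smooth muscle and pericytes. Gene counts sum over isoforms, so the long muscle and the short glial products of Dmd were not separated.

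The promoters of Des, Cav3 and Sgca are shown because these genes had the largest changes of the 9. Each sequence is the 250 bases before the transcription start in RefSeq (GRCm38.p6), read 5′ to 3′ on the gene's strand, and capitals mark CANNTG, the E-box core that bHLH factors such as MYOD1 and MYOG can bind. The Des promoter lies at chr1:75360042-75360291 (plus strand), that of Cav3 at chr6:112459255-112459504 (plus strand) and that of Sgca at chr11:94976328-94976577 (minus strand).
Des: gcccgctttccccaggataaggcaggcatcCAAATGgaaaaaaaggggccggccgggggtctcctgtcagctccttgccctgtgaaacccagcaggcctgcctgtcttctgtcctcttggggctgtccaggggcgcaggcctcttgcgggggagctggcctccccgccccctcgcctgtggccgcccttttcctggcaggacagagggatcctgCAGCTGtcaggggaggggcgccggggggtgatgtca
Cav3: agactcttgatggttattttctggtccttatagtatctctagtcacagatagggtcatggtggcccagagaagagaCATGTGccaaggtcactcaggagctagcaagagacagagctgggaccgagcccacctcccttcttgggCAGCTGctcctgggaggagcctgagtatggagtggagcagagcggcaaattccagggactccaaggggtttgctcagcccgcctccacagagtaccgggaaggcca
Sgca: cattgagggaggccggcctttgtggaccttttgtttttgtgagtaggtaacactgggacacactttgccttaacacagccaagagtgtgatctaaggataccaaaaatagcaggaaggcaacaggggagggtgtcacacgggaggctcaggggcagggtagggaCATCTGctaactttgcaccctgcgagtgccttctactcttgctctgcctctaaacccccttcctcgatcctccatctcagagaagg
Des had CANNTG at -220 and -36, Cav3 at -174 and -106, and Sgca at -86, counted from the transcription start to the first base of the motif. The second motif of both Des and Cav3 is CAGCTG. Both strands were searched, and CANNTG is its own reverse complement, so each match is a match on both strands; every CAGCTG is also a CANNTG. Among all 32851 RefSeq promoters of this length, 66.2% held CANNTG and 13.0% held CAGCTG, so a CANNTG alone did not set these genes apart. Of the other members, the Utrn promoter held 7 CANNTG, that of Sgcd held 2, and that of Sgcb none. CATTCC, the core bound by TEAD factors, was found once among the 10 promoter entries of 8 members, in Sgcd, and in 12.6% of all promoters. These matches describe letters and were not tested against binding. The genes themselves lie at chr1:75360292-75368579 (Des), chr6:112459505-112472872 (Cav3), chr11:94962777-94976327 (Sgca), chrX:82814664-85205050 (Dmd), chr10:12382187-12869888 (Utrn), chr9:108204861-108263977 (Dag1), chr5:73632749-73647737 (Sgcb) and chr11:46971077-47989451 (Sgcd) in the same build.

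The P2 libraries held 28066600 to 64518800 expected counts and the P7 libraries 90269989 to 211707202 UMIs (counted molecules) in 4779 to 10710 cells that passed the filters. At P2, Insm1 mRNA lay at 8.39 to 16.1 CPM (counts per gene scaled to a common library total) in Insm1 mutants and at 30.8 to 71.5 CPM in their controls. At P7, Tead2 lay at 7.31 to 9.09 CPM in Tead1/2 mutants and at 29.8 to 32.0 CPM in their controls. At P2, Tead2 lay at 17.6 to 20.1 CPM in Tead1/2 mutants 1 to 3 and at 21.5 to 25.7 CPM in the controls, and Tead1 overlapped (38.1 to 50.7 against 33.4 to 54.2 CPM). Tead1 was higher in the P7 Tead1/2 mutants (1132 to 1319 against 626 to 633 CPM). The counts are per gene and do not isolate the floxed exons. The P2 library labelled Tead1/2 mutant 4 had 26.2 CPM of Tead2, above all 3 controls, and 0.419 CPM of the muscle regulator Myog, against 28.7 to 38.02 CPM in the other Tead1/2 mutants. The main edgeR calls of P2 Tead1/2 mutants against controls are given with and without it. Calls of the P2 difference between alleles, of DESeq2 and of unfiltered fits, and the correlations over P2 libraries, are given with it only. The Insm1 and Tead1/2 libraries of P2 carry different batch labels, so batch and allele cannot be told apart there.

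In the P2 Insm1 mutants, Cav3 and Des rose, and the 6 members that brain cells also express were not called. Cav3 was at 0.0482, 0.107, 0.0607 and 0.0596 CPM in the 4 Insm1 controls (2 to 4 counts each) and at 1.67, 0.987, 0.633 and 1.45 CPM in the 4 mutants. The groups did not overlap, and every mutant library exceeded the highest control. The log2 change of Cav3 was 4.06 (SE 0.42, edgeR quasi-likelihood test, Benjamini-Hochberg adjusted p = 0.00259). Des was at 1.11, 1.29, 1.03 and 0.715 CPM in controls and at 3.74, 2.79, 1.63 and 2.84 CPM in mutants, again without overlap. Its log2 change was 1.42 (SE 0.26, edgeR adjusted p = 0.0453), and that call was lost when any 1 library other than Insm1 mutant 3 was left out (adjusted p 0.0660 to 0.142). These were 2 of 9 members, against 0.689% of the 19582 genes tested (0.48% higher and 0.209% lower in mutants). By Xist and Ddx3y, all 4 Insm1 controls and 2 of the 4 mutants were female, and both genes kept their call with sex as a covariate (Cav3 4.23, Des 1.66). Sgca stood at 0.337, 0.269, 0.121 and 0.179 CPM in controls and at 0.825, 0.725, 0.466 and 0.662 CPM in mutants. Its groups did not overlap either, but its log2 change of 1.54 (SE 0.32) had an edgeR adjusted p of 0.0713. DESeq2 called Sgca (adjusted p = 0.0174), with 1.59% of genes called (0.935% higher, 0.659% lower). Without the filter on low counts edgeR also called it (adjusted p = 0.0432), with 0.539% of genes called (0.33% higher, 0.208% lower).

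The other 6 members showed no call in the Insm1 comparison, with log2 changes from -0.16 for Dag1, which encodes dystroglycan, to 0.13 for Sgcd, which encodes delta-sarcoglycan. Dmd itself was at 84.9, 92.7, 92.6 and 93.3 CPM in controls and at 96.7, 95.1, 103 and 95.2 CPM in mutants. Every mutant library was above every control for Dmd, yet the log2 change was 0.11 (SE 0.06, edgeR adjusted p = 0.618). Utrn overlapped between groups, at 69.8 to 81.8 CPM in controls and 62.5 to 81.8 CPM in mutants. Dtna was at 96.5 to 102 CPM in controls and 98.4 to 109 CPM in mutants. The median log2 change was 0.11 over the members and 0.01 over all genes tested. The summed level of 12 skeletal muscle markers that are not members moved with Cav3 and Des, from 19.2 to 44.0 CPM in controls to 166 to 273 CPM in mutants, and its part in the result was not tested. Markers of 4 other cell types were lower in every Insm1 mutant than in every control. They summed to 1310 to 1386 against 1499 to 1607 CPM for granule progenitors and 2197 to 2455 against 2490 to 2594 CPM for granule neurons. For endothelium the sums were 146 to 195 against 199 to 224 CPM, and for the oligodendrocyte lineage 266 to 307 against 315 to 348 CPM. The part of these in the result was not tested either. In whole tissue, fewer cells of a type and less RNA per cell cannot be told apart. Nothing in the labels names litters or cultures beyond separate pups, and the p-values measure the spread between these libraries.

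**Figure D1:**
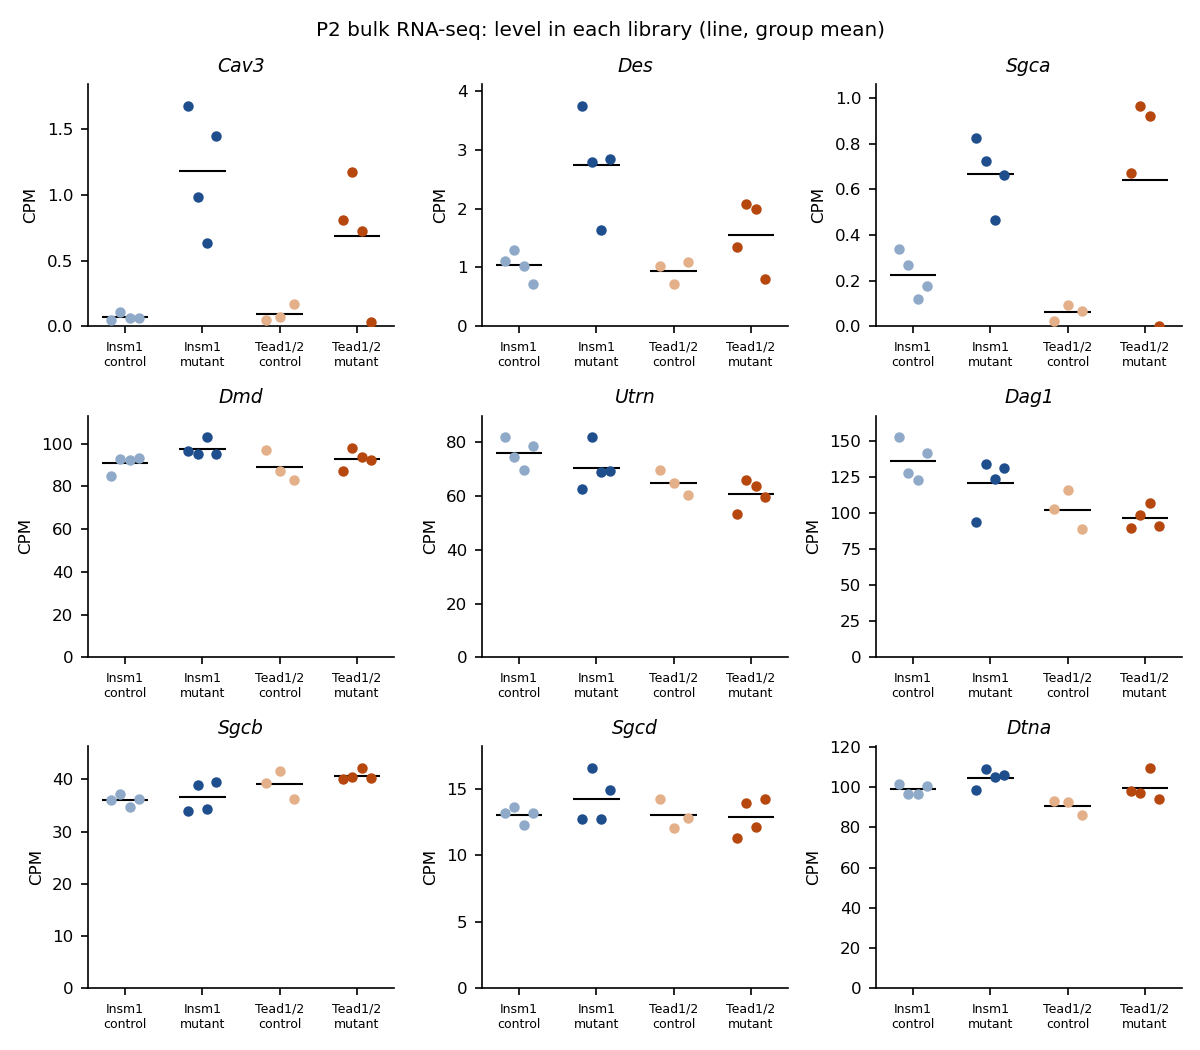
Level of each of the 9 genes in the P2 bulk libraries, in CPM (vertical axis, from 0), by group (horizontal axis); each point is a library and the line is the group mean. Cav3, Des and Sgca are low in all controls and higher in all Insm1 mutants, while 1 Tead1/2 mutant library, labelled mutant 4, sits with the controls.

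In the P2 Tead1/2 mutants the same 3 genes were higher in 3 of the 4 mutant libraries. No member was called by the main edgeR fit, with all libraries, the filter on low counts and no replicate block. Cav3 was at 0.0501, 0.0711 and 0.171 CPM in the 3 Tead1/2 controls and at 0.807, 1.18 and 0.727 CPM in mutants 1 to 3, but at 0.0322 CPM (1 count) in the library labelled mutant 4. Sgca was at 0.0251, 0.0948 and 0.0683 CPM in controls and at 0.673, 0.964 and 0.923 CPM in mutants 1 to 3, with 0 counts in the library labelled mutant 4. The groups therefore overlapped through that 1 library. With it, log2 changes were 3.32 for Sgca (SE 0.94) and 2.93 for Cav3 (SE 0.83), each with an edgeR adjusted p of 0.119. None of the 20247 genes tested was called by edgeR (0%), although 4052 genes and 3 members, Cav3, Sgca and Des, had an unadjusted p under 0.05, and DESeq2 called 955 genes (4.72%, 2.86% higher and 1.85% lower) and no member (it gave no adjusted p for Cav3 and Sgca). Without the filter on low counts, edgeR called Sgca (adjusted p = 6.73e-05) and Cav3 (adjusted p = 8.69e-05) with all libraries, and 3.14% of 40946 genes (1.93% higher, 1.22% lower).

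Without the library labelled mutant 4, edgeR called 646 of 20234 genes (3.19%, 1.98% higher and 1.22% lower), among them Sgca and Cav3. Sgca then had a log2 change of 3.68 (SE 0.41, edgeR adjusted p = 0.00162) and Cav3 of 3.27 (SE 0.43, edgeR adjusted p = 0.00346). By Xist and Ddx3y, Tead1/2 control 2 and the library labelled mutant 4 were female and the other Tead1/2 libraries male. The calls without that library used no sex covariate. Des stayed outside the call at 0.92 (SE 0.24, edgeR adjusted p = 0.0735), with controls at 0.711 to 1.09 CPM and the 3 mutants at 1.35, 2.07 and 1.99 CPM. Dmd lay at 82.9 to 97.0 CPM in controls and 87.0 to 98.1 CPM in all 4 mutants, and Dag1 at 88.8 to 116 CPM and 89.6 to 107 CPM, both with overlapping groups. The 12 muscle markers summed to 21.9 to 24.2 CPM in the controls and spanned 18.6 to 233 CPM in the mutants, with the library labelled mutant 4 at the low end. Summed Purkinje cell markers did not overlap between the groups, at 1459 to 1582 CPM in Tead1/2 controls and 1592 to 1805 CPM in mutants. In mutants 1 to 3, the libraries behind the calls of Sgca and Cav3, 3 further marker sums did not overlap with controls. They were 3820 to 4162 against 3393 to 3703 CPM for astroglia, 259 to 297 against 298 to 313 CPM for the oligodendrocyte lineage and 62.7 to 75.4 against 78.7 to 106 CPM for glutamatergic nuclear neurons. The part of these markers was not tested. The difference between the Insm1 and Tead1/2 effects at P2 gave no call by edgeR among 20837 genes (0%), with 1435 genes and 0 members at an unadjusted p under 0.05, and DESeq2 called 17 genes and no member.

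At P7, counts summed over all cells of a library showed 8 of the 9 members higher in both mutants, with Utrn as the exception. This was against 33.9% of 24602 genes called for Insm1 (18.6% higher and 15.4% lower in mutants) and 48.6% for Tead1/2 (25.9% higher and 22.7% lower), so calls were common. The 3 genes known from striated muscle had the greatest log2 changes of the 9. Des was at 0.659 and 0.595 CPM in the controls of Insm1 and at 36.3, 43.5 and 36.8 CPM in the mutants. In Tead1/2 controls it was at 0.705 and 0.628 CPM and in Tead1/2 mutants at 114, 114 and 88.3 CPM. The log2 changes of Des were 5.96 (SE 0.17) for Insm1 and 7.29 (SE 0.18) for Tead1/2, or 62.4-fold and 156-fold. Cav3 went from 0.183 and 0.191 CPM (33 and 34 UMIs) to 9.73, 11.8 and 10.2 CPM in Insm1 mutants, and from 0.189 and 0.165 CPM to 26.8, 26.2 and 19.96 CPM in Tead1/2 mutants. Neither gene's groups overlapped. Cav3 changed by 5.83 (SE 0.19, edgeR adjusted p = 2.67e-08) for Insm1 and 7.08 (SE 0.21, edgeR adjusted p = 7.03e-09) for Tead1/2. Sgca changed by 4.60 (SE 0.23) and 6.05 (SE 0.24), from 0.131 to 0.196 CPM in the 4 controls to 3.49, 4.30 and 3.71 CPM in Insm1 mutants and 12.1, 10.998 and 8.76 CPM in Tead1/2 mutants.

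Among the members that brain cells also express, Dmd was at 286 and 323 CPM in the controls of Insm1 and at 543, 526 and 522 CPM in the mutants. In Tead1/2 controls Dmd was at 230 and 211 CPM and in Tead1/2 mutants at 877, 734 and 666 CPM. Every mutant library was above every control. Dmd rose by 0.81 on the log2 scale for Insm1 (SE 0.11, edgeR adjusted p = 0.000293) and by 1.78 for Tead1/2 (SE 0.11, edgeR adjusted p = 9.76e-07). Dmd is X-linked, and both changes kept their call with sex as a covariate. By Xist and Ddx3y, both Tead1/2 controls and Tead1/2 mutant 3 were female, and Tead1/2 mutants 1 and 2 were male. Insm1 control 1 and Insm1 mutants 2 and 3 were female, and Insm1 control 2 and Insm1 mutant 1 were male. Dtna rose by 0.82 (SE 0.06) and 1.22 (SE 0.06), from 197 and 211 CPM to 350 to 359 CPM and from 162 and 164 CPM to 352 to 398 CPM. Dag1 rose by 0.34 (SE 0.07) and 1.05 (SE 0.07). Dag1 levels were 83.4 and 88.0 CPM against 107 to 109 CPM for Insm1 and 73.0 and 77.7 CPM against 144 to 167 CPM for Tead1/2. The sarcoglycan genes Sgcb and Sgcd rose too. Sgcb changed by 0.58 (SE 0.06) and 0.98 (SE 0.06). Sgcd changed by 0.35 (SE 0.09, edgeR adjusted p = 0.0166) and 0.61 (SE 0.10), and its Insm1 call was lost without Insm1 control 1 (0.21, adjusted p = 0.156), without Insm1 mutant 3 (0.31, adjusted p = 0.0564) and over the barcodes not marked as doublets (0.19, adjusted p = 0.256). Utrn was at 304 and 334 CPM in Insm1 controls and 322 to 352 CPM in Insm1 mutants, and at 322 and 330 CPM against 299 to 344 CPM for Tead1/2. Its groups overlapped, with log2 changes of 0.07 (SE 0.07, edgeR adjusted p = 0.473) and -0.02 (SE 0.07, edgeR adjusted p = 0.824). The median change over the members was 0.81 and 1.22, against 0.04 and 0.06 over all genes.

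Markers of several cell types, and the shares of cells in several classes, moved with these changes. The part of these markers and shares in the changes was not tested. The 12 muscle markers summed to 58.4 to 74.9 CPM in Insm1 controls and 5393 to 6409 CPM in Insm1 mutants, and to 52.7 to 63.9 against 12263 to 19414 CPM for Tead1/2. Meningeal fibroblast markers summed to 253 to 267 against 965 to 1068 CPM for Insm1 and to 235 to 258 against 1978 to 2311 CPM for Tead1/2. Cells later named meningeal fibroblast-like were 1.08% and 1.41% of unmarked barcodes in Insm1 controls and 1.07% to 1.43% in mutants. For Insm1 this marker sum thus moved without the cell share. For Tead1/2 the shares were 1.42% and 0.837% against 1.86% to 4.997%. Astroglial markers summed to 1198 to 1385 against 1428 to 1611 CPM for Insm1, while the Tead1/2 groups overlapped (1005 to 1121 against 1037 to 1258 CPM). Granule neuron-like cells were 41.8% and 37.98% of unmarked barcodes in Insm1 controls and 14.7% to 24.1% in mutants. For Tead1/2 they were 32.1% and 36.3% against 6.74% to 11.5%. Granule progenitor-like shares were lower in every mutant library as well. Oligodendrocyte lineage-like shares rose, from 1.12% and 1.33% to 1.88% to 2.57% for Insm1. For Tead1/2 they rose from 1.46% and 1.41% to 4.28% to 5.04%. Unnamed clusters with granule markers are not counted in these shares.

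**Figure D2:**
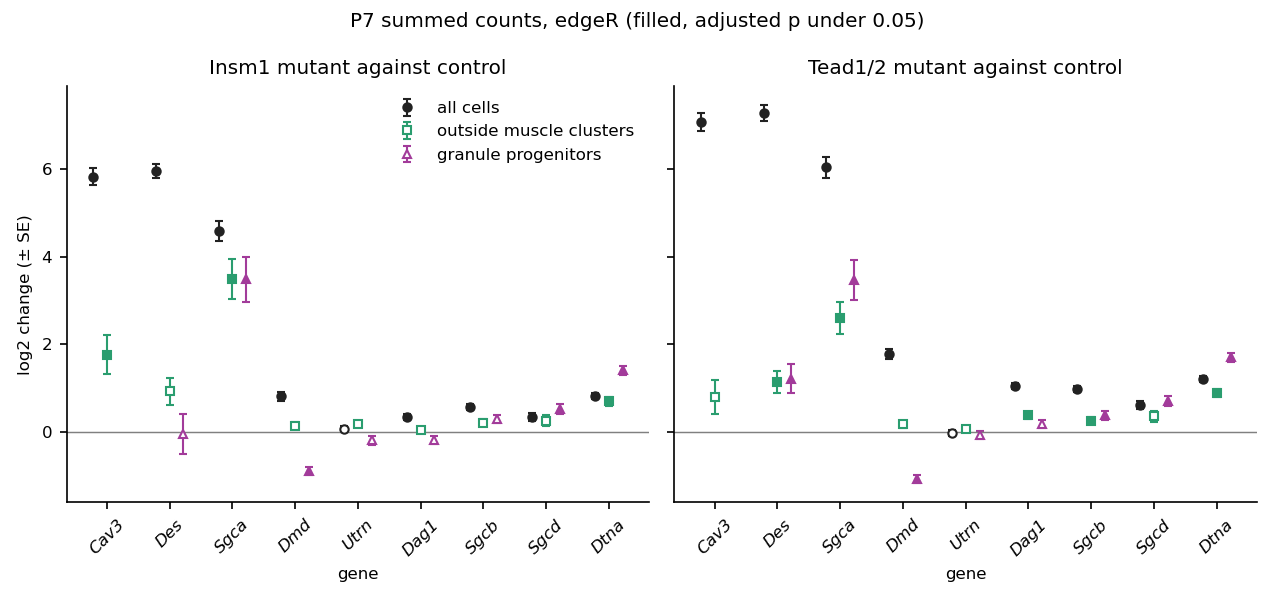
Log2 change (vertical axis, with SE) of each gene (horizontal axis) in P7 mutants against controls, for Insm1 (left) and Tead1/2 (right): all cells (circles), cells outside the muscle clusters (squares) and granule progenitor-like cells (triangles); filled symbols passed an adjusted p under 0.05. Des, Cav3 and Sgca stand highest over all cells, and outside the muscle clusters Dmd, Sgcd and Utrn have open symbols for both alleles.

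The Tead1/2 effect exceeded the Insm1 effect for 5 of the 9 members, against 3.68% of genes whose effects differed (1.51% higher and 2.17% lower for Insm1). The log2 differences, Insm1 minus Tead1/2, were -1.33 for Des (SE 0.22, edgeR adjusted p = 0.0125), -0.97 for Dmd (SE 0.15, 0.0111), -0.71 for Dag1 (SE 0.10, 0.00695), -0.40 for Sgcb (SE 0.09, 0.0404) and -0.40 for Dtna (SE 0.09, 0.0380). Cav3 (-1.25, edgeR adjusted p = 0.0522) and Sgca (-1.45, edgeR adjusted p = 0.0503) lay just outside the call. The number of members called ranged from 1, without Tead1/2 control 2, to 7, without Tead1/2 mutant 3. A block on dissection called fewer than 5. Without Tead1/2 control 2 the calls of Des (-1.26, adjusted p = 0.0645), Dmd (-0.92, adjusted p = 0.0508), Sgcb (-0.45, adjusted p = 0.114) and Dtna (-0.42, adjusted p = 0.110) were lost, and with sex as a covariate 2 members were called, Dag1 (-0.63) and Dmd (-0.81). Sgcb kept its call only without Insm1 mutant 2 or Tead1/2 mutant 3 among the 10 fits that left out 1 library (adjusted p 0.0506 to 0.122 in the others). Dtna kept it only without Insm1 control 1, Tead1/2 mutant 1 or Tead1/2 mutant 3 (0.0657 to 0.110 in the others), and Dag1 kept it in all 10. Over the barcodes not marked as doublets Des was not called (-1.87, adjusted p = 0.0782). The share of cells in muscle clusters also differed between the alleles, and its part in the difference was not tested.

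Of 62 further genes of the pathway, 41 changed in the P7 Insm1 mutants (35 higher, 6 lower) and 47 in the Tead1/2 mutants (39 higher, 8 lower), where 33.9% and 48.6% of all genes were called. Sspn, which encodes sarcospan, a membrane protein bound to the sarcoglycans, rose by 1.98 and 3.05 (log2, Insm1 and Tead1/2). Sgce, the epsilon subunit known outside muscle, fell by 0.23 and 0.24. Among syntrophins and other partners inside the cell, 7 of 8 changed, 5 higher and 2 lower. Sntb1 (beta-1-syntrophin) rose by 3.09 and 4.50 and Nos1 (neuronal nitric oxide synthase, which syntrophin anchors) by 1.296 and 1.02. The 2 lower genes were Sntb2 (-0.24 and -0.35) and Dtnb, the beta-dystrobrevin gene (-0.18 and -0.54).

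Among dystroglycan ligands, 10 of 13 changed for Insm1 (8 higher) and 11 of 13 for Tead1/2 (9 higher). Hspg2 (perlecan) rose by 1.65 and 2.44 and the laminin gene Lamb2 by 1.26 and 2.17. Among the ligands that fell was Nrxn2, a neuronal neurexin gene (-0.31 and -0.59). Of the 13 enzymes that glycosylate dystroglycan, 2 were called for Insm1 (1 higher, 1 lower) and 5 for Tead1/2 (2 higher, 3 lower). Their median log2 changes were 0.06 and 0.05. Of the genes of caveolae and membrane repair, 8 and 9 of 12 rose, led by Capn3 (a muscle calpain, 4.03 and 5.41), Trim72 (3.93 and 4.86) and Dysf (dysferlin, 3.33 and 3.96). Cav1 and Cav2, the caveolins of other tissues, were not called (0.55 and 0.37 for Cav1, -0.0041 and 0.20 for Cav2). Of the partners of desmin, 11 and 12 of 12 rose, with Xirp1 at 6.01 and 8.11, Ldb3 at 5.73 and 7.17 and Cryab at 4.51 and 5.74. At P2, edgeR called 1 of 59 of these pathway genes for Insm1 (Nebl, 0.36, adjusted p = 0.0352) and 0 of 60 for Tead1/2. The Nebl call was lost without any 1 Insm1 control, without Insm1 mutant 2 or 4, with sex as a covariate and in 1 fit of all 15 libraries. For Tead1/2, 18 of the 60 had an unadjusted p under 0.05, against 4052 of 20247 genes, and DESeq2 called 5, against 4.72%. Without the library labelled mutant 4, edgeR called 4 of the 60 for Tead1/2, all higher, against 3.19% of all genes. They were Cavin2 (0.94), Nos1 (0.59), Flnc (0.49) and Nebl (0.40).

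At P7, cells were clustered without the 9 genes and without a 69-gene skeletal muscle list, and classes were named from fixed markers. Muscle-like cells were clusters 19, 20 and 26. Cluster 21 (1765 cells) also carried muscle markers but had the mural cell marker Acta2 and no fixed muscle marker among its 10 leading genes, and was left unnamed. These 4 muscle clusters held 521 (11.7%), 542 (12.6%) and 304 (12.8%) cells of the Insm1 mutants, and 1037 (19.9%), 1459 (25.7%) and 917 (19.3%) of the Tead1/2 mutants. The Insm1 controls had 4 of 5097 and 2 of 3976 cells there, and the Tead1/2 controls 0 of 5005 and 0 of 3344, which allows up to 0.0599% and 0.0897% by counting error alone.

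Among barcodes not marked as doublets, the muscle clusters held nearly all UMIs of Des and Cav3 and smaller, differing shares of the other members. In Insm1 mutants these barcodes held 2073 of the 14193 Des UMIs and 595 of the 3872 Cav3 UMIs of all cells. The remaining UMIs lay in removed barcodes, which were not assigned to a class. Of the UMIs in unmarked barcodes of Insm1 mutants, 96.8% for Des (96.4% to 97.1% over the 3 libraries) and 94.1% for Cav3 (92.3% to 95.9%) were in the muscle clusters. In Tead1/2 mutants both shares were 98.6%. Sgca had 69.9% (64.8% to 73.4%) in Insm1 mutants and 90.4% (89.1% to 91.4%) in Tead1/2 mutants, so some Sgca lay outside. For Dmd the share was 39.7% (32.5% to 46.4%) in Insm1 and 77.1% (75.1% to 79.4%) in Tead1/2 mutants, without overlap. Sgcb (35.1% and 60.1%), Dag1 (29.7% and 58.3%), Dtna (19.3% and 49.3%) and Sgcd (12.4% and 38.8%) followed. Utrn had the lowest share of the 9 in both, at 10.7% and 22.5%, when the muscle clusters held 12.5% to 15.9% and 25.97% to 34.6% of all UMIs.

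**Figure D3:**
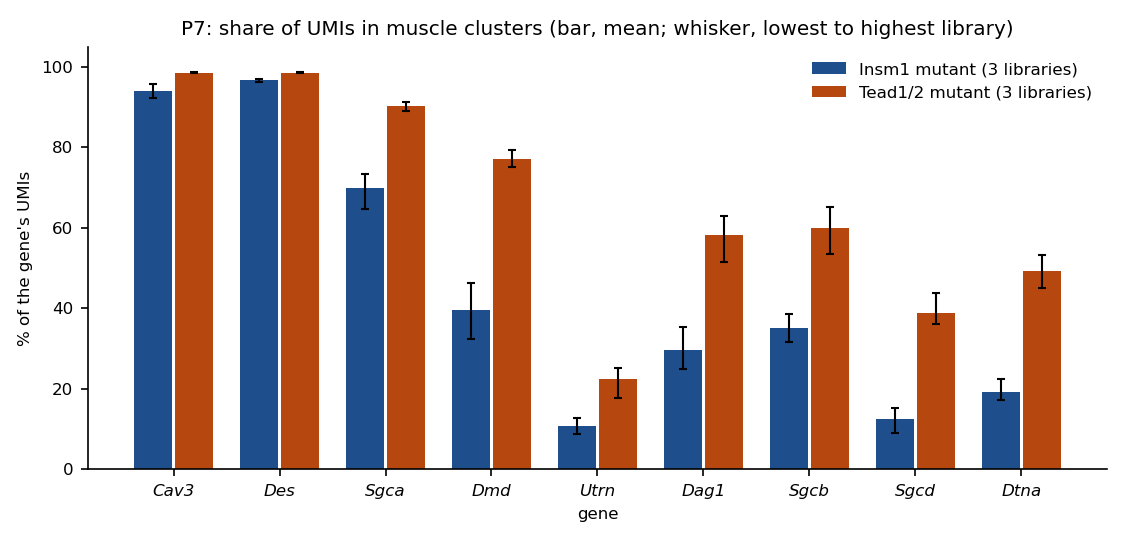
Share of each gene's UMIs (vertical axis, %) that lay in the muscle clusters of the P7 mutants, over barcodes not marked as doublets. Bars are means over 3 libraries and whiskers run from the lowest to the highest library. Des and Cav3 exceed 94% in both mutants, and Utrn is lowest at 10.7% and 22.5%.

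Across the named cell classes, 6 members had their highest mean in muscle-like cells. Dtna had it in astroglia-like, Sgcd in oligodendrocyte lineage-like and Utrn in endothelium-like cells. Unnamed clusters 15, 18, 21 and 22 were not ranked, and Sgcb was higher in cluster 21 than in muscle-like cells. Levels here are CPM, with the UMIs of the class in a library as the total, as mean ± SD over libraries, and are compared only within a gene. The levels in muscle-like cells were Des 356 ± 102 (n = 6 mutant libraries), Cav3 81.3 ± 15.6, Sgca 28.1 ± 9.45, Dmd 1979 ± 441, Sgcb 101 ± 6.45 and Dag1 278 ± 57.4. For Des and Cav3 the next class was endothelium-like, at 3.39 ± 2.50 and 1.40 ± 1.78 (n = 7). No Sgca UMI was counted in 859 meningeal fibroblast-like, 1161 microglia-like and 1202 oligodendrocyte lineage-like cells, which allows at most 0.349%, 0.258% and 0.250% of cells with a UMI. Dmd came second in oligodendrocyte lineage-like cells (882 ± 237, n = 10), whose range overlapped that of astroglia-like cells (777 ± 36.7). Below these were GABAergic interneuron-like cells (409 ± 61.3), granule neuron-like cells (236 ± 81.7) and granule progenitor-like cells (138 ± 52.8), whose neighbouring ranges overlapped. The last 2 classes stood in the opposite order in controls, at 146 ± 27.2 in neuron-like and 195 ± 24.8 in progenitor-like cells (n = 4), while the 6 mutant libraries lay at 253 to 335 and at 79.97 to 128. Dag1 in muscle-like cells overlapped the astroglia-like range (252 ± 13.9), so the order of these 2 classes was within the spread. Dag1 in the other classes ran from 55.9 ± 7.87 in granule neuron-like to 178 ± 16.8 in meningeal fibroblast-like cells, and Sgcb from 11.9 ± 6.74 in microglia-like to 44.7 ± 8.79 in astroglia-like cells.

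Dtna was highest in astroglia-like cells, at 1532 ± 58.8, with muscle-like cells next at 608 ± 80.4 and no overlap between them. In meningeal, microglia-like and endothelium-like cells it was at 14.0 or less. As a class mean, Sgcd was highest in oligodendrocyte lineage-like (2156 ± 644) and GABAergic interneuron-like cells (1985 ± 506), with overlapping ranges. It was at 966 ± 146 in muscle-like and 937 ± 335 in astroglia-like cells. The interneuron-like clusters differed: pooled over the cells of a group, Sgcd was at 3804 to 5212 in cluster 9, 1284 to 1590 in cluster 11 and 366 to 455 in cluster 14. Oligodendrocyte lineage-like cluster 10 was at 2676 in Insm1 controls and 2815 in Insm1 mutants. Utrn was highest in endothelium-like (1707 ± 103) and meningeal fibroblast-like cells (1453 ± 147). It was at 494 ± 68.9 in astroglia-like and at 280 ± 19.3 in muscle-like cells, which was below granule progenitor-like cells (296 ± 30.7) with overlapping ranges. Dmd, the gene related to Utrn, was at 76.0 ± 16.1 in endothelium-like and 32.5 ± 15.4 in meningeal fibroblast-like cells. With only the highest 4% of doublet scores removed, levels in muscle-like cells were lower (Cav3 46.0, Des 198, Sgca 16.9, Dmd 1278), and in control astroglia-like cells Dtna was at 518 and Dmd at 379. Sgcd was then highest in GABAergic interneuron-like cells (1411), with 428 in oligodendrocyte lineage-like cells. Utrn was at 800.1 in endothelium-like and 589 in meningeal fibroblast-like cells. Dmd was at 322 in oligodendrocyte lineage-like, 352 in endothelium-like and 376 in meningeal fibroblast-like cells, so its order below muscle-like cells depended on this limit.

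**Figure D4:**
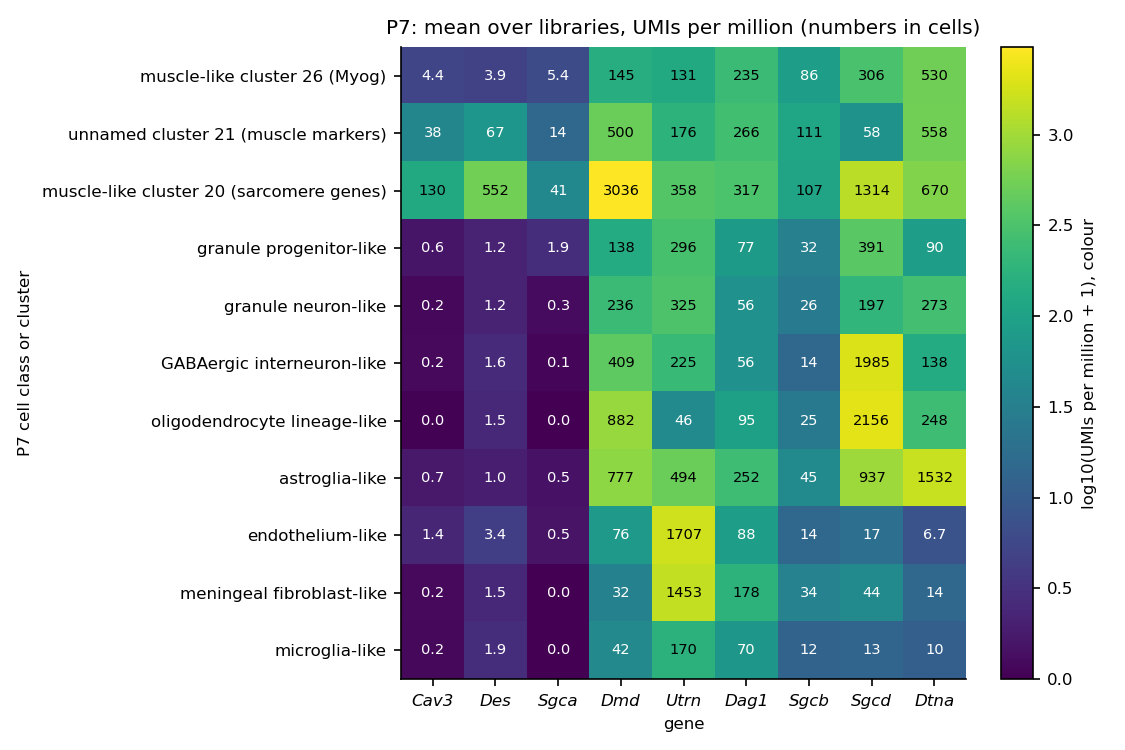
Mean level of each gene (columns) in P7 muscle clusters 20, 21 and 26 and each other named cell class (rows), in CPM of that class's UMIs. The number is the mean over libraries and the colour is its log10(value + 1). Clusters 15, 18, 19 and 22 are not shown. Des, Cav3 and Sgca are highest in muscle-like cluster 20, Dtna is highest in astroglia-like cells and Utrn in endothelium-like cells.

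Within the muscle clusters, the members were unevenly spread between cells with sarcomere genes and cells with Myog. Cluster 20 (1265 cells, led by sarcomere genes) had Des at 552 ± 50.0, Cav3 at 130 ± 22.6, Sgca at 40.7 ± 5.16 and Dmd at 3036 ± 205 (n = 6). Cluster 26 (1685 cells, with Myog among its leading genes) had Des at 3.86 ± 1.91, Cav3 at 4.38 ± 1.07, Sgca at 5.45 ± 2.54 and Dmd at 145 ± 20.2. Unnamed cluster 21 lay between, with Des at 67.3 ± 6.13, Cav3 at 38.2, Sgca at 14.1 and Dmd at 500 ± 48.0. By contrast Sgcb (107, 86.1 and 111 in clusters 20, 26 and 21), Dag1 (317, 235 and 266) and Dtna (670, 530 and 558) differed by less than 1.5 times between the 3. Sgcd was at 1314 ± 57.8, 306 and 58.2 ± 19.2. Utrn was at 358, 131 and 176. The third muscle-like cluster, cluster 19, held 71 cells, of which 70 came from Insm1 mutant 2, at a median depth of 0.309 of that of their library. The clusters were formed from other genes of the same cells, so these levels are descriptions without a test.

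Per cell, after thinning each cell to 2000 UMIs, a Des UMI was found in 60.7% of cluster 20 cells and in 0.677% of cluster 26 cells, against 0.444% of microglia-like cells of the mutants, a class that should lack desmin. Whether the cluster 26 share differs from background was not tested. Dmd UMIs were found in 87.0% and 16.7% of these cells and in 3.64% of mutant microglia-like cells. Over all muscle-like cells the shares were 23.3% for Des and 43.3% for Dmd, or 37.1% and 54.3% without thinning. Median depth was 6950 UMIs in muscle-like and 4480 UMIs in microglia-like cells. Between alleles, muscle-like cells had Dmd at 1612 ± 224 in Insm1 and 2345 ± 183 in Tead1/2 mutants (n = 3 each), and Des at 272 ± 57.1 and 440 ± 37.8. These ranges did not overlap, and the difference was not tested. With cluster 19 left out, a choice made after seeing the data, the Insm1 means were 1598 ± 218 for Dmd and 269 ± 54.3 for Des, and the Tead1/2 means, which hold no cell of it, were the same. The alleles differed in the mix of clusters, with cluster 20 holding 188 of 870 muscle-like cells in Insm1 and 1075 of 2147 in Tead1/2 mutants. Within cluster 20, Dmd was at 3171 ± 122 in Insm1 and 2902 ± 190 in Tead1/2 mutants and Des at 552 ± 60.4 and 551 ± 51.0, and within cluster 26 Dmd was at 137 ± 25.5 and 153 ± 13.6, all with overlapping ranges.

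Over all barcodes not marked as doublets, 7 of 9 members were called higher for Insm1 and 8 of 9 for Tead1/2, where 15.6% and 25.4% of all genes were called higher. Among these barcodes, cells outside the muscle clusters gave fewer calls. In Insm1 mutants 3 of 9 rose, against 17.2% of 18565 genes called (11.3% higher, 5.91% lower), and in Tead1/2 mutants 5 of 9, against 29.4% (17% higher, 12.3% lower). This comparison was added after the data had been seen. Dtna was at 208 and 239 CPM in Insm1 controls and 342, 368 and 361 CPM in Insm1 mutants, and at 166 and 135 CPM against 273, 291 and 276 CPM for Tead1/2. The groups did not overlap, and Dtna rose by 0.70 (SE 0.10, edgeR adjusted p = 0.000685) and 0.89 (SE 0.10, edgeR adjusted p = 0.000102). Sgca had 3 and 2 UMIs in Insm1 controls and 18, 38 and 17 in mutants, and 6 and 6 against 35, 48 and 48 for Tead1/2. Its log2 changes were 3.49 (SE 0.46) and 2.60 (SE 0.37). Cav3 was called for Insm1 (1.77, SE 0.45, edgeR adjusted p = 0.0224, from 5 and 3 UMIs to 14, 10 and 10), a call lost without either Insm1 control or without Insm1 mutant 1 or 3 (adjusted p 0.0556 to 0.137). For Tead1/2, Des (1.14, edgeR adjusted p = 0.00768), Dag1 (0.38, edgeR adjusted p = 0.00424) and Sgcb (0.25, edgeR adjusted p = 0.0353) were called. The Des call was lost without Tead1/2 control 1 (0.92, adjusted p = 0.0965) and the Dag1 call without Tead1/2 control 2 (0.30, adjusted p = 0.0672). The Sgcb call was lost without either Tead1/2 control or without Tead1/2 mutant 2 or 3 (adjusted p 0.0721 to 0.180). Dmd no longer passed with either allele, at 264 and 297 against 298 to 310 CPM for Insm1 (0.14, edgeR adjusted p = 0.250) and 215 and 191 against 220 to 243 CPM for Tead1/2 (0.17, edgeR adjusted p = 0.126). Sgcd did not pass either (0.26, edgeR adjusted p = 0.198 and 0.36, edgeR adjusted p = 0.0541). Muscle markers moved with these values: the 12 muscle markers summed to 68.3 to 85.0 CPM in Insm1 controls and 150 to 172 CPM in mutants, and to 66.1 to 81.6 against 252 to 726 CPM for Tead1/2. Astroglia-like cells, where Dtna was highest, were 4.10% and 6.09% of unmarked cells in Insm1 controls and 6.44% to 10.5% in Insm1 mutants. For Tead1/2 they were 2.94% and 0.837% in controls and 3.55% to 5.67% in mutants. The part of the muscle markers, of this share and of the lower granule shares given above was not tested.

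In granule progenitor-like cells, Dmd fell and Dtna, Sgcd and Sgca rose with both alleles. Dmd was at 205 and 224 CPM in the controls of Insm1 and at 128, 107 and 109 CPM in the mutants. In Tead1/2 controls it was at 191 and 170 CPM and in Tead1/2 mutants at 89.8, 79.5 and 82.2 CPM. No mutant reached a control, and Dmd fell by 0.89 (SE 0.09, edgeR adjusted p = 1.96e-05) and by 1.08 (SE 0.09, edgeR adjusted p = 2.53e-06). Dtna was at 38.9 and 41.2 against 102, 101 and 115 CPM for Insm1 and at 44.8 and 40.0 against 122, 154 and 135 CPM for Tead1/2. Again the groups did not overlap, and Dtna rose by 1.42 (SE 0.10, edgeR adjusted p = 6.95e-07) and 1.71 (SE 0.10, edgeR adjusted p = 9.89e-08). Sgcd was at 275 and 337 against 413, 398 and 508 CPM and at 309 and 266 against 481, 455 and 454 CPM. It rose by 0.53 (SE 0.12) and 0.72 (SE 0.12), and for Insm1 the call was lost without Insm1 control 1 (0.39, adjusted p = 0.107). Sgca had 3 and 2 against 14, 34 and 16 UMIs for Insm1 and 3 and 4 against 27, 38 and 36 UMIs for Tead1/2, with log2 changes of 3.48 (SE 0.52) and 3.47 (SE 0.46). These were 4 of 8 tested members for Insm1 and, with Des (1.22) and Sgcb (0.38), 6 of 8 for Tead1/2, against 17.3% (9.67% higher, 7.65% lower) and 19.2% (10.7% higher, 8.49% lower) of 14970 genes called. The Des call was lost without Tead1/2 control 1 (0.82, adjusted p = 0.287) or mutant 2 (1.13, adjusted p = 0.0682), by DESeq2 (adjusted p = 0.162) and with sex as a covariate (adjusted p = 0.0900). The Sgcb call was lost without either Tead1/2 control or mutant 2 (adjusted p 0.0536 to 0.127). Utrn (-0.19 and -0.07) and Dag1 (-0.18 and 0.18) were not called.

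Different clusters held most progenitor-like cells of mutants and controls: clusters 4, 24 and 25 held 0.165% of them in the controls of Insm1 against 77.5% in its mutants, and 0.216% and 64.0% for Tead1/2. Cluster 24 (2450 cells) had 6 granule neuron and 5 progenitor markers, an equal share of each list. A rule for ties named it progenitor-like. When clustering included the members and the muscle list, a cluster also led by Slc35f1 and Runx1t1 (2460 cells) was named granule neuron-like. Changes within each class under that naming were not tested. Levels within the 4 progenitor clusters that both genotypes shared were pooled over all cells of a group, so their ratios hold no spread between libraries. Insm1 mutant 1, with all lobules, gave 233 of the 336 Insm1 mutant cells of cluster 1, and Tead1/2 mutant 1 gave 382 of 726. Dmd was lower in mutants in 4 of 4 with either allele (ratios 0.442 to 0.760 and 0.640 to 0.772). Sgcd was higher in 4 of 4 (1.42 to 2.00 and 1.82 to 3.02). Dtna was higher in 3 of 4 for Insm1 (0.742 to 1.62) and in 2 of 4 for Tead1/2 (0.949 to 1.44), and so differed less within shared clusters than over the whole class. Utrn, not called over the whole class, was higher in 4 of 4 for Insm1 (1.01 to 1.29) and in 3 of 4 for Tead1/2 (0.978 to 1.39). The 12 muscle markers summed to 72.8 to 116 against 198 to 248 CPM for Insm1 and 67.2 to 82.3 against 288 to 1061 CPM for Tead1/2 in these cells. Astroglial markers summed to 411 to 427 against 237 to 277 CPM and 484 to 523 against 311 to 330 CPM, lower in mutants. The part of either in the result was not tested.

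In granule neuron-like cells the direction for Dmd was the opposite. Dmd was at 173 and 175 CPM in Insm1 controls and at 348, 298 and 304 CPM in mutants, and at 121 and 124 against 247, 309 and 258 CPM for Tead1/2. It rose by 0.94 (SE 0.11, edgeR adjusted p = 1.48e-05) and 1.21 (SE 0.11, edgeR adjusted p = 3.28e-06), without overlap of the groups. Dtna rose by 0.76 (SE 0.09) and 0.48 (SE 0.09), from 210 to 218 CPM in the 4 controls to 326 to 354 CPM in Insm1 and 258 to 309 CPM in Tead1/2 mutants. Utrn was at 285 and 256 against 363, 378 and 328 CPM for Insm1 and at 264 and 260 against 389, 348 and 377 CPM for Tead1/2. It rose by 0.47 (SE 0.09, edgeR adjusted p = 0.00139) and 0.56 (SE 0.09, edgeR adjusted p = 0.000418). With Sgcb for Insm1 (0.41, edgeR adjusted p = 0.0365), 4 of 7 tested members were called for Insm1 and 3 of 7 for Tead1/2, against 15.6% (10.4% higher, 5.22% lower) and 12.5% (8.76% higher, 3.76% lower) of 12923 genes. The Sgcb call was lost without any 1 Insm1 library or either Tead1/2 control (adjusted p 0.0580 to 0.160).

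Cluster 12 held 0.549% of neuron-like cells in the Insm1 control group and 68.7% in the Insm1 mutant group, and 1.31% and 33.0% for Tead1/2. In the 3 neuron clusters that both genotypes shared, pooled in the same way, Dmd was higher in mutants in 1 of 3 with either allele (ratios 0.693 to 1.57 and 0.547 to 1.29). Utrn was higher in 3 of 3 (1.29 to 1.62 and 1.32 to 2.07) and Sgcd lower in 3 of 3 (0.644 to 0.837 and 0.749 to 0.958). Dtna was higher in 2 of 3 for Insm1 (0.873 to 1.23) and lower in 3 of 3 for Tead1/2 (0.753 to 0.981). The rises of Dmd and Dtna over the whole class thus did not appear in each shared cluster, and for Dtna in Tead1/2 mutants the direction was the opposite in all 3. Muscle markers summed to 58.3 to 60.6 against 123 to 140 CPM and 67.7 to 81.4 against 166 to 624 CPM, and their part was not tested. Unnamed clusters 18 (1731 cells, 9 granule neuron markers) and 22 (602 cells, 4 granule progenitor markers) were in neither class. Cluster 18 held 2 and 2 cells of the Insm1 controls against 283, 343 and 167 of the mutants. For Tead1/2 it held 6 and 4 against 267, 362 and 295. Cluster 22 held no control cell, 2 to 8 cells of each Insm1 mutant and 129 to 275 of each Tead1/2 mutant. Over the granule lineage as named, where progenitor-like and neuron-like cells were summed, Dmd was not called for Insm1 (-0.09). It fell by 0.35 for Tead1/2 (edgeR adjusted p = 0.0324). The Tead1/2 call was lost without either Tead1/2 control or without Tead1/2 mutant 2 or 3 (adjusted p 0.0609 to 0.240). In that sum 5 members were called for Insm1 and 7 for Tead1/2, against 17.2% (10.1% higher, 7.14% lower) and 17% (9.64% higher, 7.33% lower) of 15855 genes. These counts fell to 2 without Insm1 control 1 or Insm1 mutant 3 and to 3 without Insm1 control 2 for Insm1. For Tead1/2 they fell to 3 without either Tead1/2 control and to 4 without Tead1/2 mutant 2 or 3 or by DESeq2. The progenitor and neuron fits were added after the data had been seen.

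**Figure D5:**
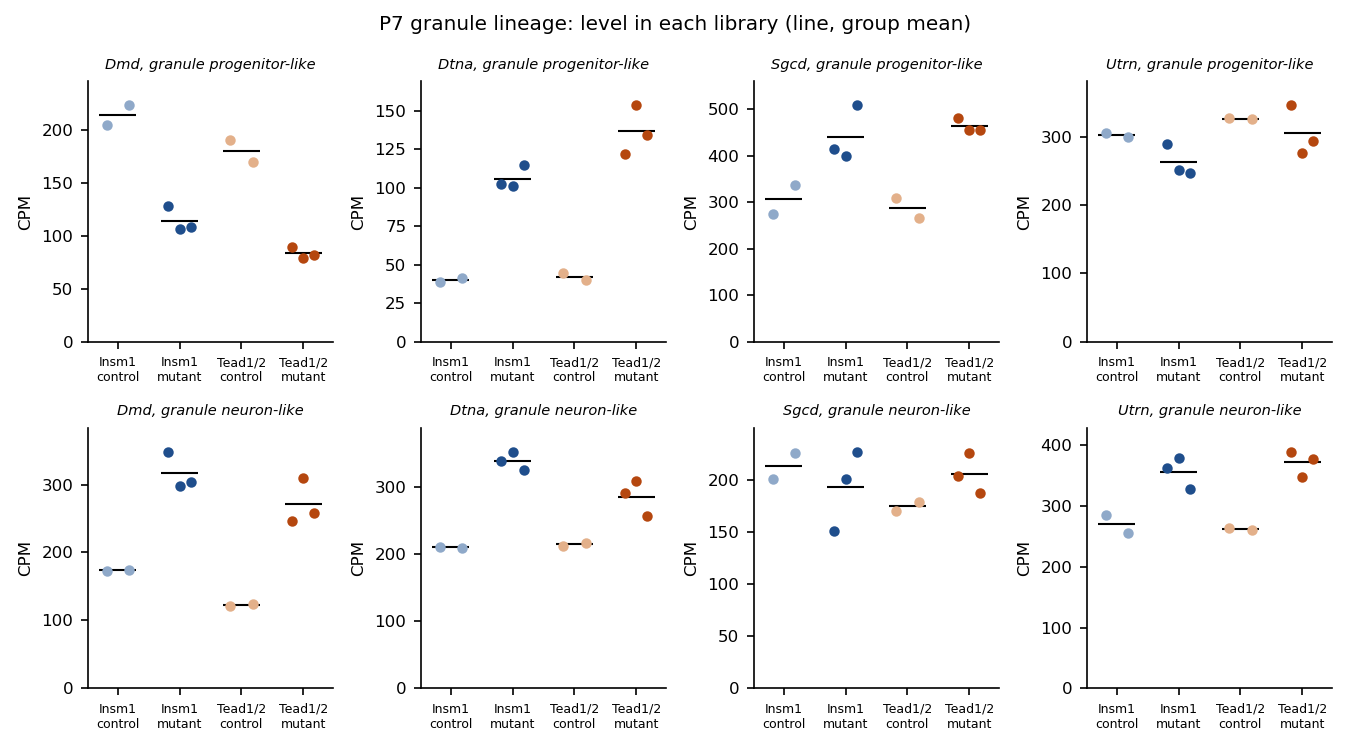
Level of Dmd, Dtna, Sgcd and Utrn in P7 granule progenitor-like cells (top) and granule neuron-like cells (bottom), in CPM of summed counts (vertical axis, from 0), by group; each point is a library and the line is the group mean. Dmd is lower in all mutant libraries in progenitor-like cells and higher in all in neuron-like cells, while Dtna is higher in mutants in both; within the neuron clusters that both genotypes shared, Dmd was higher in mutants in 1 of 3 with either allele and Dtna was lower in Tead1/2 mutants in 3 of 3.

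In astroglia-like cells, where Dtna was most abundant, no member was called. Dtna averaged 1513 CPM in the controls of Insm1 against 1499 CPM in its mutants, and 1490.3 against 1605 CPM for Tead1/2. Dmd averaged 811 against 776 CPM and 737 against 781 CPM. Cav3, Des and Sgca did not pass the filter on low counts in this class. Of the 6 members tested by edgeR, 0 passed for Insm1 (0.346% of 11557 genes called, 0.225% higher and 0.121% lower) and 0 for Tead1/2 (1.61%, 0.857% higher and 0.753% lower), and DESeq2 called 0 as well. At an unadjusted p under 0.05 there were 2 for Insm1, Sgcd (-0.44, SE 0.17, edgeR adjusted p = 0.358) and Utrn (0.27, SE 0.12, edgeR adjusted p = 0.424), and 0 for Tead1/2, against 10.4% and 12.9% of all genes. With only the highest 4% of doublet scores removed, 6 (Insm1) and 8 (Tead1/2) of 9 members were called higher in the mutants, where 25.5% (13.5% higher, 12% lower) and 28% (14.1% higher, 13.9% lower) of 16682 genes were called. The edgeR test of the difference between alleles called 0 members in astroglia-like cells (0% of genes), in the granule lineage (0.864%) and outside the muscle clusters (0.512%). At an unadjusted p under 0.05 there were 0, 1 and 1, Dag1 both times (-0.34 and -0.34), against 5.64% of all genes, 9.16% of all genes and 2047 of 18565 genes.

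The genes most like each member were ranked by Pearson's r over the 15 P2 libraries, after each allele's libraries were centred on their mean. For Cav3 they were Ttn (titin, r = 0.980), Tesc (0.974) and Gm28653 (0.971), and for Des Mylpf (0.968), Tnnt1 (0.950) and Acta1 (0.943). Ttn and the 3 genes nearest to Des encode sarcomere proteins. For Sgca they were Kcnh3 (0.968), Tprn (0.957) and Unc5b (0.952). Dmd was closest to Pcdh9 (0.892), Itgb8 (0.888) and Picalm (0.886), Dtna to Ptprr (0.934), Utrn to Piezo1 (0.934), Dag1 to Prex1 (0.981), Sgcb to Aldh9a1 (0.831) and Sgcd to Gm43876 (0.889). These values describe 15 libraries that share genotype and depth differences.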

How the data were processed

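Bulk RNA-seq of P2 cerebella (15 libraries) and single-cell RNA-seq of P7 cerebella (10 libraries) were used. P2 values are expected counts per gene, deposited by the authors; the submitters' processing notes name STAR 2.7.9a, RSEM 1.3.3 and the builds GRCm38.p6 and mm10. Between 6.84% and 8.77% of them were not whole, and they were rounded, after 92 ERCC spike-in entries had been left out. P7 values are UMI counts per gene and barcode, deposited by the authors, and the gene tables name GRCm39, per the file headers; the tool that counted them is not given in the sources used here.

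Groups came from the sample labels. Each P2 table is named for the other allele, and its columns were assigned by the column names in the sample descriptions. Genes were filtered with filterByExpr, scaled by TMM and tested with edgeR 4.0.16 (quasi-likelihood, R 4.3.3), each P2 allele on its own and the P7 groups in 1 fit. A call is a Benjamini-Hochberg adjusted p under 0.05, and changes are log2 mutant over control. A P7 barcode was kept from 1000 UMIs and 500 genes upwards, if mitochondrial UMIs were at most 15% (79838 cells), and sums over all these cells gave the all-cell values. For classes, Scrublet scores above 0.0391 were removed as doublets (30.6% to 53.7% of a library), leaving 44193 cells. In 3 libraries Scrublet's own threshold marked under 0.5% of cells, so this common threshold, the median of those of the other libraries, was chosen after seeing the data. Removed cells had median depths of 15294 to 26116 UMIs per library, and kept cells of 4402 to 7723. The libraries shared 0 barcodes in the form compared. Clustering (scanpy 1.11.5, 2000 variable genes, 30 components, 15 neighbours, Leiden resolution 1.0) left out the members and the skeletal muscle list. A class needed at least 3 markers, each 1.5-fold over the mean of clusters and in at least 10% of cells, and at least 20 cells per library. Counts of 0 were bounded at 3 counts, which covers counting error only.

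The members and gene lists were chosen with earlier results of these data known. All members were named, then pathway genes with a call by size of change, at most 4 per list and comparison; lower genes, and genes of counts of 5 or fewer, were named after their values had been seen. Single values of some pathway genes, and a count that rests on them, are not reported here. Neighbour genes needed a mean of at least 1 CPM (prior count 2). Alternatives were DESeq2 1.42.0, other size factors, no filter, a replicate block, sex as a covariate, other doublet and UMI limits, clustering with the members, leaving out muscle-like cluster 19, and leaving out each library. Replicate numbers did not pair the samples.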

Additional observations from a re-analysis of the deposited data

Results flagged for a closer look

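In 27 groups of 4 P2 libraries, the gap of the highest or lowest library to its neighbour was compared with the whole range of the group, against Dixon's 95% critical value. This passes by chance in about 1 in 20 groups, and 2 passed. Dmd in the Insm1 controls gave 0.907, because Insm1 control 1 lay at 84.9 CPM below the other controls at 92.6 to 93.3 CPM. Sgcb in the Tead1/2 mutants gave 0.841, because Tead1/2 mutant 3 lay at 42.1 CPM above the others at 40.1 to 40.4 CPM.

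Over all P7 cells, the Insm1 effect minus the Tead1/2 effect was past the threshold of edgeR's test of the difference for 5 members. It was -0.71 for Dag1, -0.97 for Dmd, -1.33 for Des, -0.40 for Dtna and -0.40 for Sgcb on the log2 scale. For these 5 genes, all 3 mutant libraries of each allele were above both of their controls. The genes were picked by that test on the same libraries, so this separation adds no support.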

How the results depend on the processing

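Replicate numbers did not pair the samples (r of same-numbered deviations -0.32 to 0.35 at P2 and -0.30 to 0.0012 at P7). With the replicate block, P2 calls were 64 instead of 135 genes, 1 member and 0 pathway genes for Insm1. For Tead1/2 they were 236 instead of 0 genes, 2 members and 2 pathway genes. At P7 the block on dissection gave 8, 8 and 4 members for Insm1, Tead1/2 and their difference. The share of all genes called with the P7 block is not given here, so these counts are not set against it.

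At P2, DESeq2 called 312 genes and 2 pathway genes for Insm1 and 955 and 5 for Tead1/2. No filter gave 212 genes and 2 pathway genes for Insm1, and 1287 genes, 2 members and 10 pathway genes for Tead1/2. Sex as a covariate gave 88 genes and 0 pathway genes for Insm1, and 1 fit of all 15 libraries 0 pathway genes. At P7, sex gave 2 members for the difference between alleles, DESeq2 4 for the Tead1/2 granule lineage, and no filter 3 for the Insm1 granule lineage and 1 for Insm1 astroglia (Sgcd, -0.42). With the highest 4% of doublet scores removed, astroglia-like cells gave 6 members for Insm1 and 8 for Tead1/2. The causes were not tested.

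With that doublet limit, levels (CPM) in muscle-like cells were Dmd 1278, Utrn 303, Dag1 194, Sgca 16.9, Sgcb 69.4, Des 198, Cav3 46.0 and Dtna 471; in controls they were Dtna 518, Dmd 379 and Dag1 117 in astroglia, Sgcd 371 in oligodendrocyte lineage and Utrn 787 in endothelium. Muscle cells defined by at least 3 muscle list genes gave Dmd 1416, Sgcd 681, Des 246 and Cav3 61.5. Without thinning, muscle-like cells with a UMI were 28.0% for Cav3, 37.1% for Des, 18.3% for Sgca and 54.3% for Dmd, and microglia-like cells with Des 1.46%.

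Changes of sign were in values that had not been called: the P2 difference for Utrn without a filter (-0.0081) and Sgcb with sex (0.0077); granule lineage Utrn without a filter for Insm1 (-0.022) and with the 4% limit for Tead1/2 (-0.054); and, with the 4% limit, Insm1 astroglia Dmd 0.22, Dag1 0.27, Sgcb 0.36, Sgcd 0.25 and Dtna 0.63, and Tead1/2 astroglia Sgcd 0.11.

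Leaving out 1 library at a time gave, at P2, 1 to 2 members and 0 to 1 pathway genes for Insm1, and 0 to 2 and 0 to 4 for Tead1/2. At P7 it gave 1 to 7 members for the difference, and 2 to 5 (Insm1) and 3 to 6 (Tead1/2) in the granule lineage, 3 to 6 and 4 to 7 in progenitors, 3 to 4 and 3 to 4 in neurons, and 2 to 4 and 3 to 6 outside muscle clusters. For these P7 fits, and for the P7 sex, DESeq2 and no-filter fits above, the share of all genes called is not given here. These counts show only how calls moved between fits. Ranges that crossed 0 were, at P2, Sgcb -0.0039 to 0.069 (Insm1), Sgcb -0.00083 to 0.070 and Sgcd -0.11 to 0.014 (Tead1/2), and for the difference Dag1 -0.14 to 0.051, Dtna -0.045 to 0.029, Sgcb -0.039 to 0.037 and Utrn -0.051 to 0.085. At P7 they were Utrn -0.0098 to 0.13 (Insm1) and -0.076 to 0.032 (Tead1/2) in all cells, Utrn -0.047 to 0.075 (Insm1) and -0.044 to 0.13 (Tead1/2) in the granule lineage, Des -0.26 to 0.14 (Insm1) and Utrn -0.20 to 0.0076 (Tead1/2) in progenitors, Sgcd -0.22 to 0.080 (Insm1) in neurons, and Dag1 -0.089 to 0.13 (Insm1) outside muscle clusters. In astroglia they were Dag1 -0.18 to 0.067 (Insm1), and Dag1 -0.023 to 0.085, Dmd -0.00066 to 0.070, Sgcb -0.25 to 0.37, Sgcd -0.46 to 0.32 and Utrn -0.053 to 0.30 (Tead1/2), where Tead1/2 control 2 held 28 cells. Cav3 and Sgca rest on 1 to 14 counts per control library at P2, which limits their fold changes.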
